A study of Mus musculus with 6 samples.

Results

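The 8 collagen chains Col3a1, Col5a1, Col5a2, Col6a1, Col6a2, Col6a3, Col12a1 and Col14a1 and the tendon markers Tnmd and Scx were followed in RNA from mouse knee articular cartilage. These 10 genes were taken by symbol as genes of synovium, meniscus and tendon, out of 55401 genes in the count table, and all 10 were found there. The 3 adseverin knockout libraries (cKO 1 to 3) and the 3 wild-type libraries (WT 1 to 3) came from mice of 10 weeks. Scin encodes adseverin, which severs and caps actin filaments. Mice of both groups, the wild type included, had been given tamoxifen, 1.5 mg per 10 g of body weight daily for 5 days from the age of 8 weeks. Neither the driver of the recombinase nor the deleted exons nor the number of mice per sample is stated, so p-values rest on the spread among these libraries, part of which may be technical.

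Collagens are built from 3 polypeptide chains that wind into a helix. Collagen III co-assembles with collagen I in the fibrils of soft connective tissue, and collagen V is built into the core of such fibrils and sets their diameter. Collagen VI forms beaded filaments, which in cartilage are concentrated in the pericellular matrix around chondrocytes. Collagens XII and XIV lie on the surface of fibrils in tendon, ligament and skin. Scleraxis (Scx) is a basic helix-loop-helix transcription factor of tendon progenitors, and tenomodulin (Tnmd) is a membrane glycoprotein of mature tendon and ligament cells.

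Levels are CPM (read counts scaled by library size and TMM factor), over read totals of 22664828 to 31014996 per library. Scin measured 39.1, 29.9 and 29.4 CPM in the cKO libraries and 186, 185 and 219 CPM in the WT libraries, so each library matched its label (log2 fold change -2.59 ± 0.14 SE, edgeR adjusted p = 0.000659). Chondrocyte markers were abundant, with a summed level of 55213 to 61797 CPM in cKO and 50366 to 53575.5 CPM in WT over 15 genes. The library WT 2 stood apart, since 10 skeletal muscle genes summed to 1420 CPM there, against 42.4 to 257 CPM in cKO and 41.0 and 67.2 CPM in the other WT libraries. Y-linked Ddx3y was at 136 to 155 CPM and Xist at no more than 4 reads in the 6 libraries. Of 16260 genes tested with edgeR's quasi-likelihood test, 0.00615% (1 gene, Scin, lower in cKO) passed a Benjamini-Hochberg adjusted p of 0.05. In bulk RNA, fewer cells of a type and less RNA per cell cannot be told apart.

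The promoters of the 3 collagen VI chains and of Col3a1 are shown because the collagen VI transcripts kept nearly fixed proportions across libraries, while Col3a1 varied more than its neighbour on the chromosome. That neighbour, Col5a2, also kept close to the collagen VI chains, but no promoter was matched for it. Each sequence is the stretch of 250 bases before the RefSeq start, 5′ to 3′ on the gene's strand, GRCm38.p6, with 4 motifs in capitals. These are the E-box (CANNTG), the TATA box (TATAAA), the CCAAT box (CCAAT) and the GC box (GGGCGG), each searched on both strands. The Col3a1 stretch is chr1:45311288-45311537 (plus strand), that of Col6a1 is chr10:76726045-76726294, that of Col6a2 is chr10:76623631-76623880 (the start that lies farther upstream of its 2) and that of Col6a3 is chr1:90843972-90844221 (these 3 on the minus strand).
Col3a1: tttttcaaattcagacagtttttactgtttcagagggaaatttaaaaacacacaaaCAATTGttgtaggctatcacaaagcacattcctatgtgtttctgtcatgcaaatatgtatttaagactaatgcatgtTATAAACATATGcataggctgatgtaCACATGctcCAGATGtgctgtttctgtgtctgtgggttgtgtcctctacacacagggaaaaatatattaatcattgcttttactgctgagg
Col6a1: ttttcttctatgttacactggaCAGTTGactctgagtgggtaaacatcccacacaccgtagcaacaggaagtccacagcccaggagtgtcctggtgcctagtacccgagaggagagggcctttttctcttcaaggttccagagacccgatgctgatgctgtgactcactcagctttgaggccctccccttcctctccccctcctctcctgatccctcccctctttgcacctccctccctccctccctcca
Col6a2: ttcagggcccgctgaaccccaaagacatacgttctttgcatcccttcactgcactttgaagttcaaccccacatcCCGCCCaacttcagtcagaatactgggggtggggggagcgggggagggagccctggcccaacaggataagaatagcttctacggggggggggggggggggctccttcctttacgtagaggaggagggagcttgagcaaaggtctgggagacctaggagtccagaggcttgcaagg
Col6a3: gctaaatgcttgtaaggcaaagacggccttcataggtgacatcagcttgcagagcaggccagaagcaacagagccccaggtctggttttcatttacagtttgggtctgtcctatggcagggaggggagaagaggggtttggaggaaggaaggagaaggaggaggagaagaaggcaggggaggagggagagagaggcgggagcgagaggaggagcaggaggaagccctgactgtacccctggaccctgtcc

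The Col3a1 stretch held 4 E-boxes and 1 TATAAA, and its GC content was 35.2%. The TATAAA begins 117 bases before the RefSeq start and adjoins an E-box without overlapping it. The Col6a1 stretch held 1 E-box and the printed Col6a2 stretch 1 GGGCGG on the opposite strand, and the Col6a3 stretch held none of the 4 motifs, at GC contents of 56%, 59.2% and 57.2%. The stretch before the other Col6a2 start, chr10:76623405-76623654, held 3 GGGCGG on the opposite strand, of which the 2 nearest the start overlap, at a GC content of 64.4%. Among 32851 promoter stretches of the same length, 66.2% held an E-box, 12.4% TATAAA, 33.8% CCAAT and 32.7% GGGCGG. A match of letters is a description and shows no binding. Gene spans are those of GENCODE M21 on GRCm38, which do not all begin at the RefSeq starts. The Col6a1 stretch and the stretch before the other Col6a2 start therefore lie partly inside the spans of their genes. The fibril collagens are Col3a1 (ENSMUSG00000026043) at chr1:45311538-45349706 on the plus strand, Col5a1 (ENSMUSG00000026837) at chr2:27886425-28039514 on the plus strand and Col5a2 (ENSMUSG00000026042) at chr1:45374321-45503282 on the minus strand. The collagen VI genes are Col6a1 (ENSMUSG00000001119) at chr10:76708792-76726168 on the minus strand, Col6a2 (ENSMUSG00000020241) at chr10:76595762-76623630 on the minus strand and Col6a3 (ENSMUSG00000048126) at chr1:90765923-90843971 on the minus strand. The fibril-surface collagens are Col12a1 (ENSMUSG00000032332) at chr9:79598991-79718831 on the minus strand and Col14a1 (ENSMUSG00000022371) at chr15:55307750-55520803 on the plus strand. The tendon markers are Scx (ENSMUSG00000034161) at chr15:76457452-76459458 on the plus strand and Tnmd (ENSMUSG00000031250) at chrX:133850980-133865577 on the plus strand. Promoters were matched for 6 of the 10 genes, the other matched genes being Col5a1 and Tnmd, and not for Col5a2, Col12a1, Col14a1 and Scx.

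The 10 genes ranged from collagen VI and III chains at high levels to a tendon marker that was almost absent. Per kilobase of annotated exon, Col6a1 was the highest of the 10, at 289 ± 31.6 CPM per kb in cKO and 278 ± 16 CPM per kb in WT (SD, n = 3 each). Over the 6 libraries it averaged 283 CPM per kb, followed by Col3a1 at 184, Col5a2 at 89.8, Col6a2 at 64.5, Col6a3 at 25.3, Col5a1 at 18.3, Col12a1 at 6.68, Col14a1 at 3.11, Scx at 3.02 and Tnmd at 0.378 CPM per kb. Col3a1 (99.5 to 243 CPM per kb) and Col5a2 (84.4 to 97.0 CPM per kb) did not overlap in level, and Col14a1 (0.953 to 5.74 CPM per kb) and Scx (2.29 to 4.02 CPM per kb) did. Per kilobase of the longest protein-coding transcript, a length chosen after the data were seen, Col3a1 (324 CPM per kb) came before Col6a1 (302 CPM per kb), and Scx (5.86 CPM per kb) before Col14a1 (3.38 CPM per kb).

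**Figure D1:**
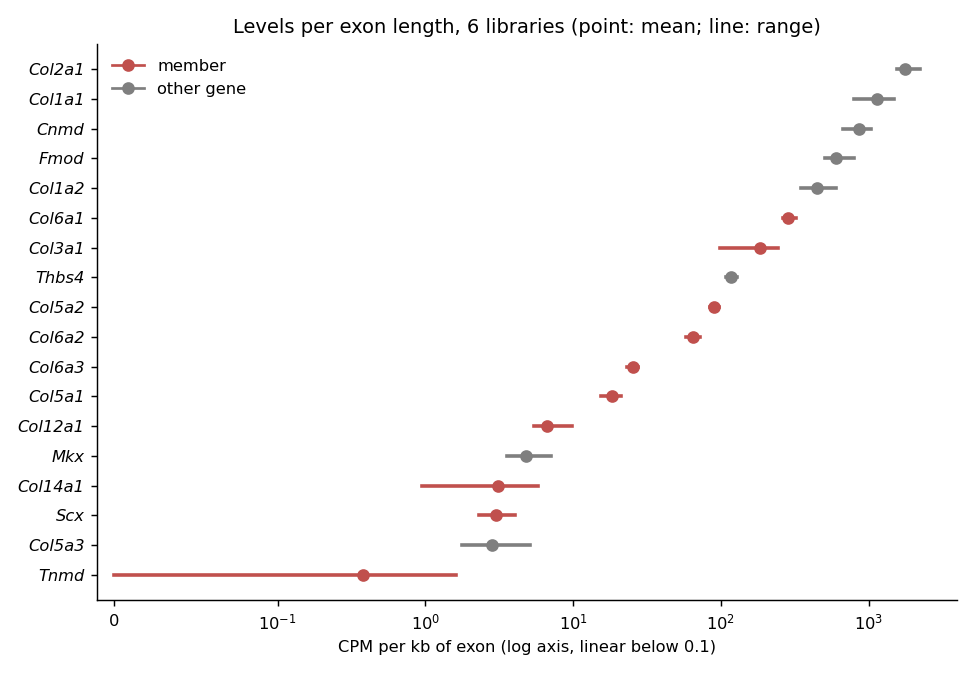
Levels of the 10 genes (red) and of 8 other matrix and tendon genes (grey), in CPM per kb of exon on an axis that is logarithmic above 0.1, as the mean (point) and range (line) of 6 libraries. The 10 genes run from 283 CPM per kb for Col6a1 to 0.378 CPM per kb for Tnmd, all below Col2a1 and Col1a1.

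For scale, Col2a1, the main collagen of cartilage, averaged 1755 CPM per kb of exon over the 6 libraries. Col1a1 and Col1a2, the chains of the bone and fibrous tissue collagen I, averaged 1136 and 450 CPM per kb of exon. Per kilobase of the longest protein-coding transcript, Col2a1, Col1a1 and Col1a2 were at 3178, 1257 and 1045 CPM per kb. The gap between Col1a1 and Col1a2 thus depends on the length used. Collagen I is also made by osteoblasts, whose 12 marker genes summed to 30849.6 to 34266 CPM in cKO and 27264.5 to 30608 CPM in WT.

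Of the defining tendon markers, Tnmd was at or near 0 and Scx was low. Tnmd had 0, 7 and 0 reads in the cKO libraries (0, 0.23 and 0 CPM), against 0, 50 and 17 reads in the WT libraries (0, 2.19 and 0.646 CPM). Libraries of both genotypes were at 0, where 3 reads would be 0.107 to 0.133 CPM, and the 50 reads were in WT 2, the library with the muscle transcripts; their part in that value was not tested. Tnmd did not pass the filter on low counts and was left out of the main test. With no filter its log2 fold change was -3.45 ± 1.58 (SE, edgeR adjusted p = 0.798, unadjusted p = 0.0457). With DESeq2 it was -3.58 (unadjusted p = 0.0546). Chondromodulin (Cnmd), the cartilage homologue of tenomodulin, measured 1774 ± 121 CPM in cKO and 1407 ± 158 CPM in WT (SD, n = 3 each). Its log2 fold change was 0.33 ± 0.10 (SE), at an edgeR adjusted p of 0.658.

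Scx was low and did not separate the genotypes. It measured 4.60, 8.07 and 5.69 CPM in cKO, against 6.23, 5.44 and 6.38 CPM in WT. Those of cKO enclosed all WT values, and the log2 fold change was 0.03 ± 0.28 (SE, edgeR adjusted p = 0.994). Scx lies on chromosome 15 inside the span of Bop1, a ribosome biogenesis gene on the other strand, with no exon bases shared. Bop1 measured 33.2 ± 5.33 CPM in cKO and 35.0 ± 1.19 CPM in WT (SD, n = 3 each). No source used here states whether counting used strand, so reads from unspliced Bop1 RNA within Scx cannot be told apart from Scx reads.

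Of the other tendon genes, Thbs4, a thrombospondin of tendon and cartilage matrix, measured 399 ± 34.5 CPM in cKO and 367 ± 13 CPM in WT. Fmod, the fibril-binding proteoglycan fibromodulin, measured 2041 ± 515 CPM in cKO and 1912 ± 211 CPM in WT. Mkx, a homeobox factor of tendon, measured 21.8 ± 6.14 CPM in cKO and 17.5 ± 2.60 CPM in WT (SD, n = 3 each). Kera (keratocan) had no reads in the cKO libraries and only 5, 14 and 22 reads in the WT libraries (0.178 to 0.836 CPM). It did not pass the filter on low counts and was left out of the main test. Over 15 tendon and ligament genes, 14 were tested, 7 were above 0 and 7 below, and 0 passed with edgeR, DESeq2 or limma-voom. Their median was -0.04, with a range of -0.26 without cKO 1, when all 15 were tested, to 0.13 without WT 2. At an unadjusted p under 0.05 there was 1, the zinc finger factor Egr2 (log2 fold change 0.62 ± 0.26 SE, edgeR adjusted p = 0.752).

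The genotype comparison asked which of the 10 transcripts differed after adseverin deletion. With edgeR 0 of the 9 tested genes passed an adjusted p of 0.05, and 0 passed with limma-voom or with DESeq2, which called 0.444% of the 18479 genes to which it gave an adjusted p. At an unadjusted p under 0.05 there were 3 with edgeR, Col3a1, Col5a1 and Col12a1, all lower in cKO, while 2.96% of all tested genes lay lower and 3.54% higher at that p. DESeq2 had 2 at that p, Col5a1 and Col12a1, and limma-voom 2, Col3a1 and Col5a1. The unadjusted p of Col3a1 was 0.0653 with DESeq2, and that of Col12a1 was 0.0512 with limma-voom. The log2 fold change was below 0 for 4 genes (49.4% of all tested genes) and above 0 for 5, with a median of 0.02 beside 0.0037 over all tested genes. Without cKO 2 the median was -0.23, over 10 tested genes.

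**Figure D2:**
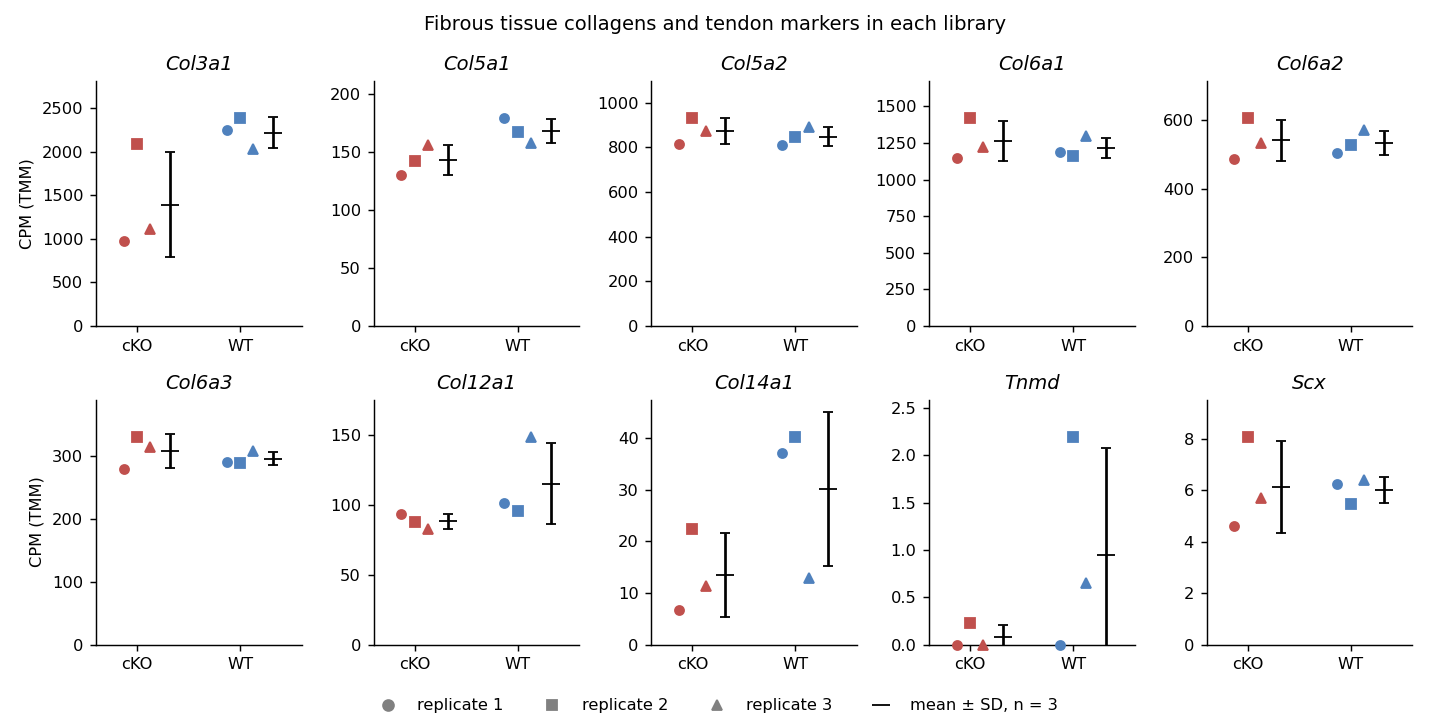
CPM of the 10 genes in each library, cKO (red) left of WT (blue), with the mean and SD of 3 libraries; SD bars that would pass below 0 end there. Col5a1 and Col12a1 do not overlap between the groups, whereas in Col3a1 and Col14a1 cKO 2 lies among the WT libraries.

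Col3a1, the chain of collagen III, had the widest gap in absolute level. It measured 977, 2082 and 1114 CPM in the cKO libraries, against 2251, 2381 and 2025 CPM in the WT libraries. The cKO 1 and cKO 3 values were far below all WT values, while cKO 2 lay above WT 3. The means were 1391 ± 602 CPM in cKO and 2219 ± 180 CPM in WT (SD, n = 3 each), so that cKO was at 62.7% of WT. The log2 fold change was -0.67 ± 0.25 (SE, edgeR adjusted p = 0.707, unadjusted p = 0.0274). Without cKO 2 it was -1.09 (edgeR adjusted p = 0.121), without cKO 1 -0.47 and without WT 2 -0.63.

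Collagen V is a heterotrimer in which the chains of Col5a1 and Col5a2 combine, and Col5a3 encodes a rarer chain. Col5a1 measured 131, 142 and 156 CPM in cKO, against 179, 167 and 158 CPM in WT. The groups did not overlap, and the nearest values were those of cKO 3 and WT 3. The log2 fold change was -0.23 ± 0.10 (SE, edgeR adjusted p = 0.728, unadjusted p = 0.0391), and without cKO 1 it was -0.17. Col5a2 measured 814, 930 and 876 CPM in cKO, against 810, 845 and 892 CPM in WT, at a log2 fold change of 0.04 ± 0.08 (SE, edgeR adjusted p = 0.966).

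Col5a3, not among the 10, measured 13.8, 12.1 and 14.1 CPM in cKO, against 34.8, 21.6 and 19.0 CPM in WT, without overlap. Its log2 fold change was -0.91 ± 0.23 (SE, edgeR adjusted p = 0.605, unadjusted p = 0.00427). Within a library the ratio of Col5a1 to Col5a2 reads was 0.164 ± 0.0131 in cKO and 0.199 ± 0.022 in WT, with overlap. The ratio of Col5a3 to Col5a2 was 0.0154 ± 0.00209 in cKO and 0.0299 ± 0.0115 in WT, without overlap (SD, n = 3 each). Ratios are given as descriptions and were not tested; the smallest p that exact permutation of 3 and 3 libraries allows is 0.1.

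Col5a2 and Col3a1 are neighbours on chromosome 1, where 24614 bases separate the genes (Col3a1 on the plus strand at 45311538 to 45349706, Col5a2 on the minus strand at 45374321 to 45503282, GRCm38). Their levels did not vary alike. The ratio of Col3a1 to Col5a2 reads was 1.20, 2.24 and 1.27 in cKO, against 2.78, 2.82 and 2.27 in WT. The cKO libraries all lay below the WT libraries, cKO 2 and WT 3 being nearly equal. Highest over lowest library was 2.44 for Col3a1 and 1.15 for Col5a2.

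**Figure D3:**
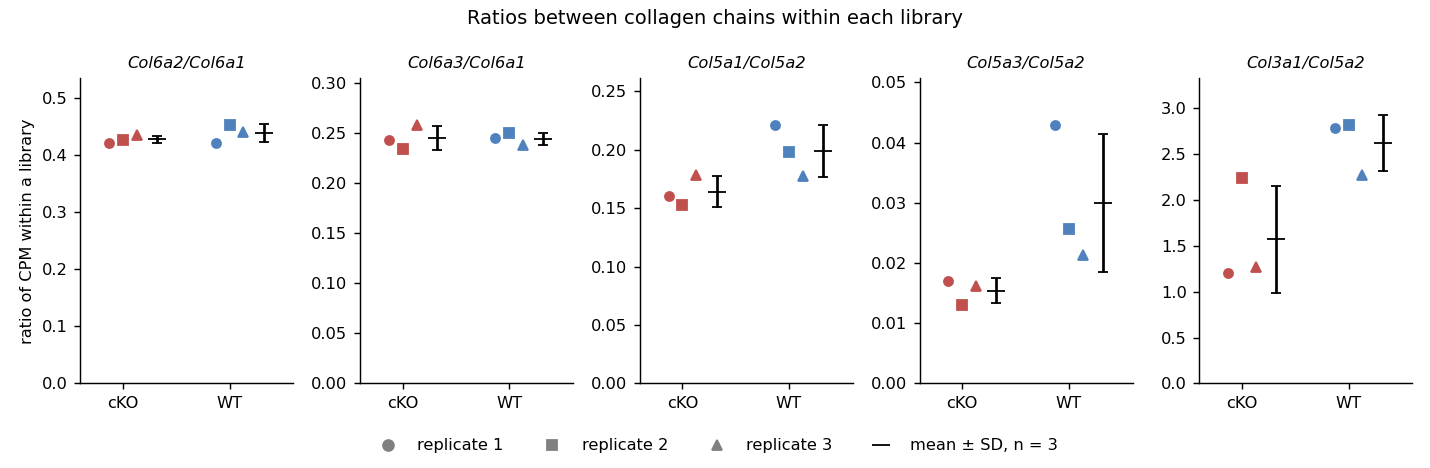
Ratios of CPM between collagen chains within each library, cKO (red) left of WT (blue), with the mean and SD of 3 libraries, each axis starting at 0. The Col6a2 to Col6a1 ratio stays between 0.422 and 0.453 in the 6 libraries, whereas Col3a1 to Col5a2 runs from 1.20 to 2.82.

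The 3 chains of collagen VI, which assemble into 1 protein, kept nearly fixed proportions, and Col5a2, of another protein, kept close to them. Col6a1 measured 1149, 1418 and 1226 CPM in cKO, against 1191, 1162 and 1295 CPM in WT. Col6a2 measured 486, 604 and 533 CPM in cKO, against 502, 527 and 571 CPM in WT. Col6a3, the longest chain, measured 279, 331 and 316 CPM in cKO, against 292, 289.8 and 308 CPM in WT. In each of the 3 genes cKO 2 was the highest library and cKO 1 the lowest, and the WT values lay between them.

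The Col6a2 to Col6a1 ratio was 0.428 ± 0.00638 in cKO and 0.439 ± 0.0157 in WT, and the Col6a3 to Col6a1 ratio 0.245 ± 0.0122 in cKO and 0.244 ± 0.00589 in WT (SD, n = 3 each). Highest over lowest library was 1.07 and 1.10 for the ratios, and 1.23, 1.24 and 1.19 for Col6a1, Col6a2 and Col6a3 themselves. Col5a2, a chain of another protein, also varied little, at 1.15, and kept close to the collagen VI chains. Its log2 CPM, centred on the mean of the 6 libraries, was -0.080, 0.113 and 0.026 in cKO and -0.087, -0.025 and 0.053 in WT. That of Col6a3 was -0.113, 0.132 and 0.064 in cKO and -0.051, -0.060 and 0.027 in WT. For the Col1a1 to Col1a2 ratio, also of 1 protein, highest over lowest library was 1.23. Nearly fixed proportions were thus not particular to chains of 1 protein, though no test was run. Per kilobase of exon the Col6a2 to Col6a1 ratio was 0.225 in cKO and 0.231 in WT, and that of Col6a3 to Col6a1 0.0896 in cKO and 0.0893 in WT. Per kilobase of the longest protein-coding transcript, Col6a1, Col6a2 and Col6a3 averaged 302, 115 and 29.9 CPM per kb. Col6a1 was thus the most abundant chain also per length, by a margin that depends on the length used. The log2 fold changes were 0.06 ± 0.10, 0.02 ± 0.10 and 0.06 ± 0.09 (SE), at edgeR adjusted p-values of 0.963, 0.987 and 0.950. Without cKO 2 the values of Col6a1 and Col6a2 were below 0, at -0.03 and -0.07.

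Col6a1 and Col6a2 stand in the same orientation on chromosome 10 with 85161 bases between them, whereas Col6a3 is on chromosome 1. The other family members Col6a4, Col6a5 and Col6a6 had 0 to 52 reads per library, and Col6a4 and Col6a6 did not pass the filter on low counts. Relative to Col2a1, Col6a1 was at 0.0721 ± 0.0043 in cKO and 0.082 ± 0.00658 in WT (ratio of reads, SD, n = 3 each). The groups did not overlap, although cKO 3 (0.0770) and WT 1 (0.0778) were nearly equal. Col2a1 itself was at 17598 ± 2603 CPM in cKO and 14840.5 ± 429 CPM in WT.

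The fibril-surface collagens XII and XIV both measured lower in cKO and behaved differently among libraries. Col12a1 measured 93.8, 88.0 and 83.0 CPM in cKO, against 101, 95.9 and 149 CPM in WT. The groups did not overlap, although cKO 1 and WT 2 were close and WT 3 stood above the rest. The log2 fold change was -0.38 ± 0.16 (SE, edgeR adjusted p = 0.752, unadjusted p = 0.0451), and it was -0.16 without WT 3. Of the 9 tested genes, Col5a1 and Col12a1 were the 2 without overlap, both lower in cKO, while 5.89% of all tested genes lay lower and 6.41% higher without overlap.

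Col14a1 measured 6.69, 22.5 and 11.3 CPM in cKO, against 37.1, 40.3 and 13.0 CPM in WT. The groups overlapped, since cKO 2 was above WT 3, and the highest library was 6.02 times the lowest. The log2 fold change was -1.15 ± 0.50 (SE, edgeR adjusted p = 0.774), -1.74 without cKO 2, -1.51 without WT 3, -0.89 without WT 2 and -0.83 without cKO 1. Col3a1 and Col14a1 ranked the 6 libraries in the same order, WT 2, WT 1, cKO 2, WT 3, cKO 3 and cKO 1 from high to low, an agreement noticed after the values were seen.

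**Figure D4:**
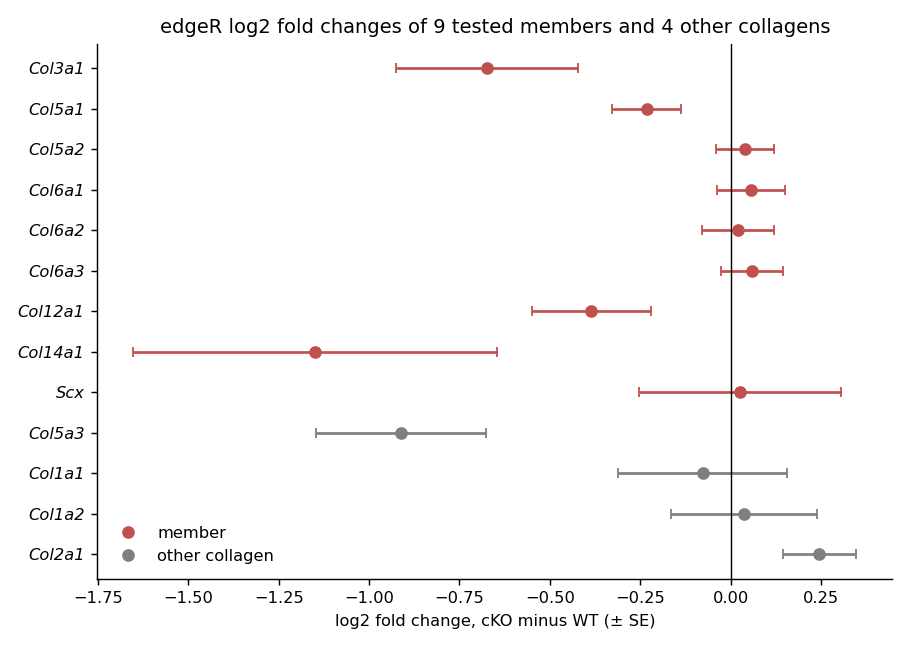
Log2 fold changes of cKO minus WT with their SE from edgeR, for the 9 tested genes (red) and 4 other collagens (grey). Col3a1, Col5a1, Col12a1 and Col14a1 lie below 0, at -0.67, -0.23, -0.38 and -1.15, and the collagen VI chains, Col5a2 and Scx lie within 0.06 of 0.

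The genes whose library profile lay closest to the mean profile of the 8 collagens were Oma1, Gm12184, Elk4, Psmd14 and Qpctl. Likeness was the root mean square distance of log2 CPM, each centred on its mean over the 6 libraries, and it was 0.0306 for Oma1, a mitochondrial protease gene, and 0.0648 for Qpctl, the last of these. The collagens themselves lay at 0.142 (Col5a1) to 0.748 (Col14a1) from that mean, farther than each of these 5 genes.

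Among other collagens of fibrous tissue, 10 of 13 genes were tested, of which 3 were above 0 and 7 below (median -0.17, and -0.10 without cKO 1). With edgeR, DESeq2 and limma-voom 0 passed, and at an unadjusted p under 0.05 edgeR had 1 higher and 2 lower. Col1a1 measured 7257 ± 2280.5 CPM in cKO and 7655 ± 1889 CPM in WT, and Col1a2 5661 ± 1629 CPM in cKO and 5518 ± 1032 CPM in WT (SD, n = 3 each). Their log2 fold changes were -0.08 ± 0.23 and 0.04 ± 0.20 (SE), at edgeR adjusted p-values of 0.980 and 0.989. The ratio of Col3a1 to Col1a1 reads was 0.219 ± 0.158 in cKO and 0.3 ± 0.0679 in WT, with overlap.

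Of 25 genes that process and cross-link collagen, all were tested, 10 above 0 and 15 below (median -0.02), and with edgeR 0 passed. The number above 0 was 5 without cKO 2 (median -0.081) and 13 without cKO 1 (median 0.012). At an unadjusted p under 0.05 edgeR had 3, all lower in cKO. Plod2, the lysyl hydroxylase of collagen telopeptides, had the smallest p, at 966, 932 and 933 CPM in cKO, against 1189, 1106 and 1224 CPM in WT. Its log2 fold change was -0.31 ± 0.07 (SE, edgeR adjusted p = 0.596), and it was the 1 gene of this list that DESeq2 called (adjusted p = 0.0177), while limma-voom called 0.

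Of 17 collagen VI, receptor and fibril partners, 4 were above 0 and 13 below (median -0.12), 0 passed with edgeR, DESeq2 or limma-voom, and 1 was higher and 1 lower at an unadjusted edgeR p under 0.05. The lower one was Lum (lumican, a fibril-binding proteoglycan), at 515, 906 and 647 CPM in cKO, against 903, 1045 and 988 CPM in WT. Its log2 fold change was -0.51 ± 0.18 (SE, edgeR adjusted p = 0.700), and cKO 2 again lay among the WT values. Of 17 TGF-beta and tendon fate regulators, 3 were above 0 and 14 below (median -0.11, and -0.071 without cKO 3), and 0 passed with edgeR, at an adjusted p under 0.05 or an unadjusted one. DESeq2 and limma-voom also called 0 of them, and Tgfbi had the smallest p (log2 fold change -0.33 ± 0.17 SE, edgeR adjusted p = 0.812).

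**Figure D5:**
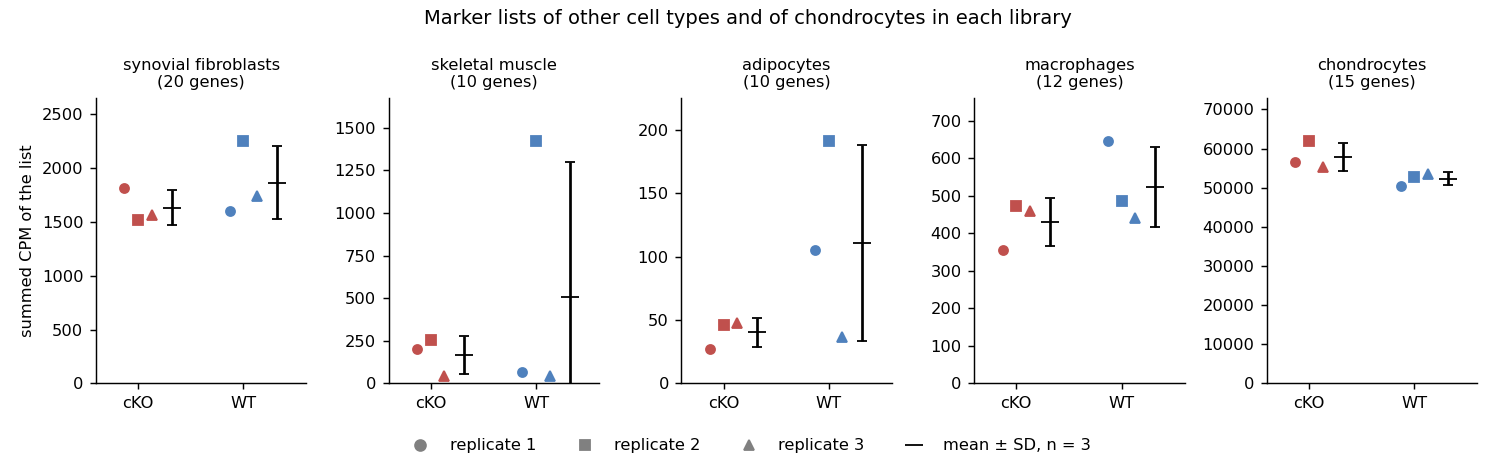
Summed CPM of marker lists in each library, cKO (red) left of WT (blue), with the mean and SD of 3 libraries; SD bars that would pass below 0 end there. Skeletal muscle markers reach 1420 CPM in WT 2, and the synovial fibroblast list is also highest there, at 2249 CPM.

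Markers of other cells of the joint were also counted on each side of 0. Of 20 synovial lining and sublining fibroblast markers, 3 were above 0 and 17 below (median -0.34, but -0.52 without WT 3 and -0.11 without WT 2, when 9 were above 0), summing to 1518 to 1817 CPM in cKO and 1605 to 2249 CPM in WT. With edgeR 0 of them passed and 3 were lower at an unadjusted p under 0.05, and DESeq2 and limma-voom called 0. None of their genes was at 0 in all libraries, although Thy1, a marker of sublining fibroblasts, was at 0.31 to 0.996 CPM. Their part in the lower Col3a1, Col5a1, Col12a1 and Col14a1 values was not tested. Sfrp2, a secreted Wnt modulator of fibroblasts, had the smallest p (log2 fold change -3.46 ± 0.87 SE, edgeR adjusted p = 0.605).

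Pericyte and smooth muscle markers had 8 of 9 tested genes below 0 (median -0.79, but -0.43 without cKO 2 and -0.28 without WT 2), summing to 78.1 to 154 CPM in cKO and 99.0 to 213 CPM in WT. Macrophage markers had 10 of 11 below 0 (median -0.32) and summed to 357 to 473 CPM in cKO and 442 to 645 CPM in WT. Their median was -0.11 without cKO 1, -0.16 without WT 1 and -0.51 without cKO 2. Adipocyte markers had 9 of 9 below 0 (median -1.27, and -0.59 without WT 2) and summed to 27.0 to 47.8 CPM in cKO and 36.7 to 191 CPM in WT, with Lep (leptin) at 0 in every library. Endothelial markers had 7 of 9 below 0 (median -0.43), at 39.5 to 78.0 CPM in cKO and 51.0 to 85.0 CPM in WT. Their median was -0.22 without cKO 2, -0.24 without WT 2 and -0.85 without cKO 3. Skeletal muscle markers had 8 of 8 tested below 0 (median -1.40, but 1.59 without WT 2).

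The smallest-p genes of these lists were Myh11 (smooth muscle myosin, log2 fold change -2.57 ± 1.31 SE), C1qa (a complement subunit of macrophages, -0.68 ± 0.21), Cfd (adipsin, -2.40 ± 0.78), Cldn5 (an endothelial tight junction protein, -0.73 ± 0.40) and Mylpf (a muscle myosin light chain, -1.08 ± 0.65). On the other side were Hemgn (an erythroid nuclear protein, 2.11 ± 0.35), Sp7 (osterix, an osteoblast factor, 0.22 ± 0.09) and Retnlg (a neutrophil secreted protein, 0.77 ± 0.30). Their edgeR adjusted p-values ran from 0.361 for Hemgn to 0.846 for Mylpf. Among 5 sex-linked genes Uty had the smallest p (0.17 ± 0.24), and 0 passed.

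Chondrocyte markers lay on the other side, with 14 of 15 above 0 (median 0.22), and so did 11 of 12 osteoblast and osteocyte markers (median 0.24), 10 of 10 erythroid markers (median 0.51) and 7 of 9 neutrophil markers (median 0.37). Without cKO 3, 7 of 12 osteoblast and osteocyte markers were above 0 (median 0.033), and without cKO 2 their median was 0.37. The neutrophil median was 0.13 without cKO 3, when 5 of 9 were above 0, 0.12 without WT 2 and 0.56 without WT 1. The part of these lists in the values of the 10 genes was not tested either. With edgeR 0 of the 112 tested genes of the cell type lists passed, 12 being higher and 8 lower at an unadjusted p under 0.05. Of all tested genes, 3.54% lay higher and 2.96% lower at that p, shares that also apply beside the other lists. DESeq2 called 5 genes of the cell type lists, the cartilage proteoglycan gene Acan as lower in cKO and 4 erythroid markers as higher, and limma-voom called 0. Over all genes to which it gave an adjusted p, DESeq2 called 0.444%. The summed level of the 10 genes was 3940.1, 5626 and 4320.3 CPM in cKO, against 5369, 5516 and 5418 CPM in WT, so that cKO 2 was the highest of the 6 libraries and cKO 1 the lowest.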

How the data were processed

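RNA from 3 cKO and 3 WT knee cartilage samples was analysed; the genotype label gave each sample's group and its title the number. cDNA came, per the labels' protocols, from a full-length kit for ultra-low RNA input. The values used are raw read counts by Ensembl gene as deposited by the authors. Per the submitters' processing notes, the tools were featureCounts 2.0.1, HISAT2 2.2.1 and FastQC 0.11.9, then DESeq2 1.30.1 under R 4.0.5, on GRCm38. A deposited normalized table was not used. Symbols were found for 55141 of 55401 identifiers in GENCODE M21 (GRCm38), which also gave exon lengths; promoters are from RefSeq, GRCm38.p6.

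Genes were filtered with filterByExpr (16260 left), TMM-normalised and tested with edgeR 4.0.16 (R 4.3.3; glmQLFit, glmQLFTest, group as the 1 term, 4 residual degrees of freedom), with Benjamini-Hochberg adjustment over all genes tested. SE is the size of the log2 fold change over the square root of F. Log2 CPM used a prior count of 2. Floors of 3 reads cover counting error. Alternatives included DESeq2 1.42.0 and limma 3.58.1. The script was tested on simulated counts. Libraries of a group differed beyond sampling noise (chi-square per degree of freedom 31.4 to 36.5). The 10 genes and the 16 comparison lists, the tests and the naming rule were chosen with earlier results of these data known. Named are the 10 genes, Scin, Col1a1, Col1a2, Col5a3, Mkx, Thbs4, Fmod, Col2a1, the 5 nearest profiles and, of each list, up to 3 genes that passed or else the one with the smallest p. Kera, Cnmd, Thy1, Lep, Bop1, Xist and Ddx3y, the remaining collagen VI genes and the DESeq2 calls were named after their values were seen. The erythroid markers that DESeq2 called are counted and not reported one by one here.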

Additional observations from a re-analysis of the deposited data

How the results depend on the processing

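The count of members past the threshold was 0 under each of 17 alternatives, and 0 genes of the 16 comparison lists passed with edgeR under the 12 scaling, filter and leave-out settings run for them. Over all genes, 1 passed, against 3 with no filter, 82 with DESeq2, 0 with WT 2 and cKO 3 both left out, and 1 to 2 with single libraries left out. The median log2 fold change of the tested genes, 0.02, was -0.11 with no filter and -0.11 with DESeq2, which both add Tnmd. With single libraries left out it was -0.23 to 0.072, and Tnmd was also added without cKO 1, cKO 2, cKO 3 or WT 1. The SD between replicates of the median log2 CPM of the tested members was 0.096, a spread of levels and not of the median fold change. Directions turned with single libraries left out for Col5a2 (-0.0077 to 0.090), Col6a1 (-0.034 to 0.12), Col6a2 (-0.067 to 0.093) and Scx (-0.23 to 0.20). Same-numbered libraries had correlations of deviations of -0.019, 0.071 and 0.023, so the numbers were not taken as pairs; with the replicate block 1 gene and 0 members passed, and Scx turned to -0.0099, the median being -0.0099 too. The cause of these turns was not tested. Col3a1, Col5a1, Col12a1 and Col14a1 stayed below 0 under all 17 alternatives, at -1.09 to -0.47, -0.31 to -0.17, -0.51 to -0.16 and -1.74 to -0.77, with adjusted p-values of 0.121 to 0.925, 0.538 to 0.918, 0.487 to 0.918 and 0.694 to 0.964. Scaling per kb of exon leaves a log2 ratio of groups as it is by construction. Depth limits Tnmd, at 7 reads over the cKO and 67 over the WT libraries.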
